A study of Mus musculus with 6 samples.

Results

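The collagen genes of the mouse kidney were examined here, taken as every gene whose symbol is Col, a number, a and a number, such as Col4a1. There were 44 of them among the 19937 genes with a named probe set, the set of array probes that reports a gene. They comprised 11 fibrillar collagens, the 6 type IV chains of basement membranes and 27 other collagens. Each gene was represented by its single-symbol probe set with the highest mean over the 6 arrays, and only Col6a5 and Col6a6 had more than 1 such probe set.

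RNA of whole kidneys was hybridised to Affymetrix arrays, with 3 control and 3 NICD1 samples. The controls were wild-type littermates. The NICD1 mice carried Pax8rtTA and TREICNotch1: the Pax8 promoter drives a tetracycline-controlled activator in tubule epithelium, and that activator switches on the intracellular domain of Notch1, its signalling form. The labels give neither age, sex, inducing dose nor time after induction, and do not say whether each sample came from a separate animal, so p-values measure the spread between these samples. Interstitial fibroblasts, glomeruli and vessels are not named as targets of the transgene, but their RNA is part of every whole-kidney sample.

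Collagens are secreted proteins whose chains wind into helical trimers. Fibrillar collagens such as types I, III and V form the fibres of the interstitium, and their accumulation by activated fibroblasts is the hallmark of kidney fibrosis. Type IV collagen forms the sheet-like network of basement membranes: Col4a1 and Col4a2 chains build the network found in all of them, while Col4a3, Col4a4 and Col4a5 chains together build the one of the mature glomerular filter, whose loss causes Alport syndrome. The remaining collagens decorate fibrils, form beaded filaments or short-chain lattices, or span cell membranes.

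Sequences before the start site are shown for Col1a2 and Col3a1, the fibrillar collagens that rose most among those with a window in the RefSeq promoter table (build GRCm38.p6). That table held 35 of the 44 genes in 38 windows of 300 bases, 250 before and 50 after an annotated start. The letters shown are the 150 bases before the start, at chr6:4505468-4505617 and chr1:45311388-45311537, both on the plus strand. Capitals mark a CCAAT box in Col1a2 and the letters TATAAA in Col3a1.
Col1a2: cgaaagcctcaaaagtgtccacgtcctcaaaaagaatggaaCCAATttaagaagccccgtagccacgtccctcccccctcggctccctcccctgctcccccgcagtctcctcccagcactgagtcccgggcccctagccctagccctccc
Col3a1: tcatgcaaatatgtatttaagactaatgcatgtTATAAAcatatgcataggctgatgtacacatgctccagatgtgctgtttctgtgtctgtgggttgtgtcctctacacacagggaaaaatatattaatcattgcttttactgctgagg

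The annotated starts of Col4a1 and Col4a2, which lie on opposite strands, are 21 bases apart, and the windows of both genes share 78 bases. The marked letters begin 109 bases before the annotated start of Col1a2 and 117 bases before that of Col3a1. Searched on both strands, with hits that share bases counted under each motif, CCAAT was present in 13 of the 38 collagen windows (34.2%) against 37.4% of all 32851 windows in the table. TATAAA was present in 5 collagen windows (13.2%) against 13.6%. GGGCGG, the GC box, was present in 23 collagen windows (60.5%) against 35.7%. These were 9 of 14 windows of risen collagens, 2 of 3 windows of fallen ones and 12 of 21 windows of the rest. TGGGAA, the core of the motif bound by RBPJ, the DNA-binding partner of the Notch1 intracellular domain, was present in 12 collagen windows (31.6%) against 25.6%. It stood in 2 of 14 windows of risen collagens, 1 of 3 windows of fallen ones and 9 of 21 windows of the rest. These are matches of letters in a short window only.

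Expression is given on the log2 scale, after the authors' RMA normalization. Across genes the array median was 5.26 to 5.29 for the controls and 5.38 to 5.41 for the NICD1 samples. Notch1, the gene of the transgene, checked the labels: the NICD1 arrays all stood above the controls, with a mean of 10.19 ± 0.18 against 6.56 ± 0.11 (SD, n = 3). Groups were compared with limma across all genes, and a gene is called changed at a Benjamini-Hochberg adjusted p under 0.05. All differences are NICD1 minus control in log2 units, and the adjusted p-values come from that fit.

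Of the 44 collagens, 16 rose, 5 fell and 23 were not called. Over all genes 17.8% were called higher, 14.9% lower and 32.7% in either direction. At 2-fold or more, 9 collagens rose and 3 fell, where the shares over all genes were 4.65% and 5.30%. The median difference was 0.18 over the collagens and 0.015 over all genes. The collagen median was 0.059 after quantile normalization and 0.053 with arrays centred on their medians, where the median over all genes was -0.004 and -0.108. All 3 NICD1 arrays lay above all 3 controls for 18 collagens and below them for 5, with 23.7% and 19.7% over all genes. Changes ran from a 14.2-fold rise of Col12a1, ranked 15 among all genes by size of rise, to a 3.13-fold fall of Col4a4.

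**Figure D1:**
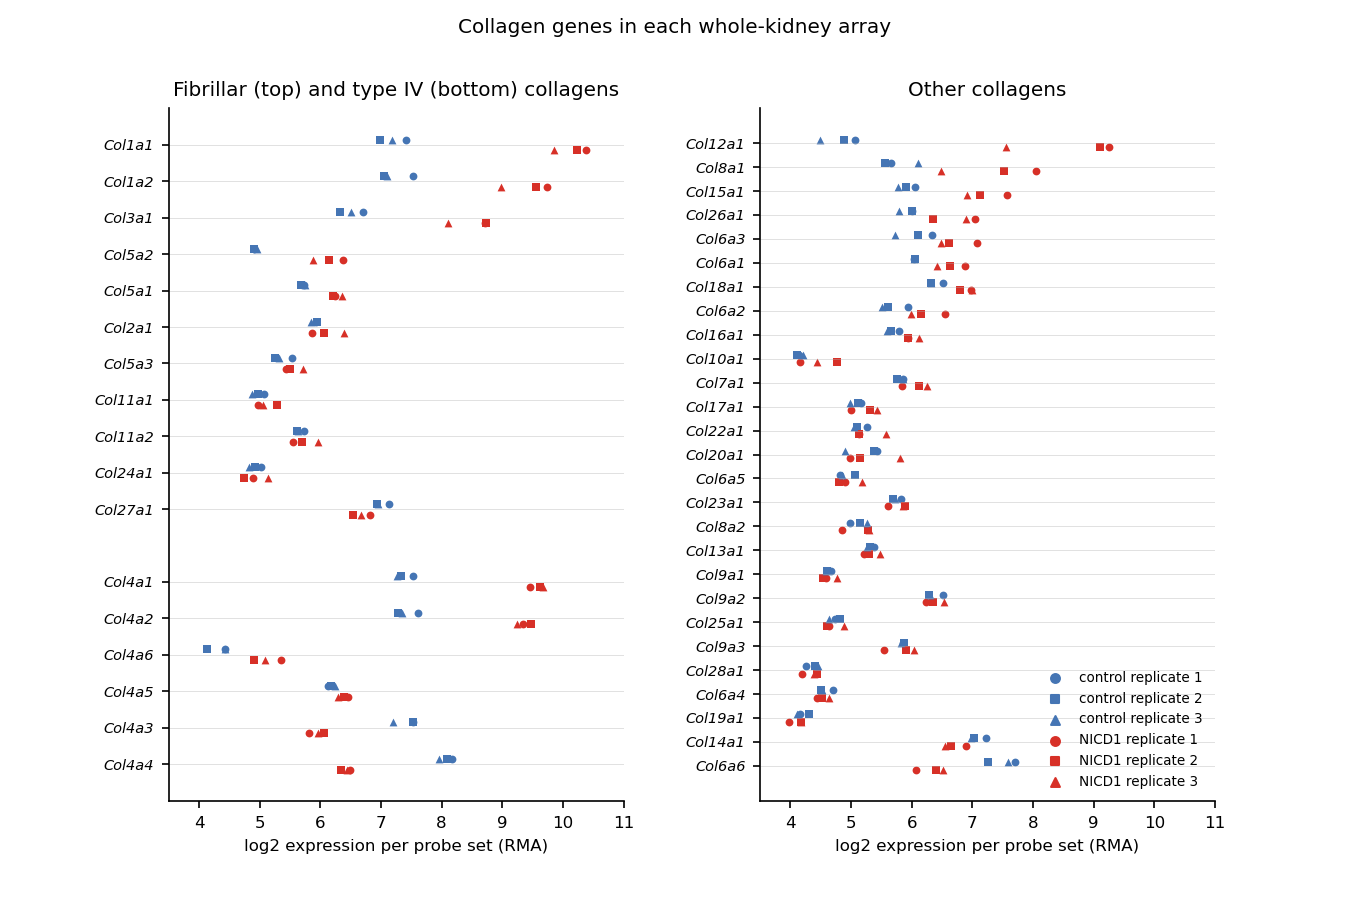
Log2 expression (x axis) of the 44 collagen genes (rows, ordered by difference within a class) in each of the 6 arrays. Blue points are controls and red points NICD1, and the shape gives the replicate number. Red and blue points separate widely in the upper rows of each panel, for Col4a3, Col4a4 and Col6a6 in the opposite direction, and mix for 21 genes.

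Among fibrillar collagens, both type I chains, Col3a1 and the type V chains Col5a1 and Col5a2 rose, and Col27a1 fell. Of 11 genes, 5 rose (45.5%), 1 fell and 5 were not called, with a median difference of 0.21. The shares over all genes were 17.8% higher and 14.9% lower. Col1a1, the main chain of type I collagen, read 7.42, 6.98 and 7.17 in controls and 10.38, 10.23 and 9.85 in NICD1 kidneys. The groups stood far apart, a 7.78-fold difference (2.96 log2, SE 0.16, adjusted p = 2.14e-06). Its partner chain Col1a2 read 7.52, 7.05 and 7.10 in controls against 9.74, 9.55 and 8.97, and rose 4.58-fold (2.20 log2, SE 0.20, adjusted p = 3.82e-05). Col3a1, which makes the fine reticular fibres of soft tissue, read 6.70, 6.32 and 6.51 against 8.72, 8.73 and 8.10, and rose 4.02-fold (2.01 log2, SE 0.18, adjusted p = 3.10e-05). In all 3 of these genes the NICD1 replicate 3 was the lowest of its group and still above every control.

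Type V collagen nucleates type I fibrils and sets their diameter. Col5a2 read 4.91, 4.90 and 4.96 in controls and 6.38, 6.14 and 5.87 in NICD1 kidneys, a 2.31-fold rise (1.21 log2, SE 0.13, adjusted p = 1.09e-04). Col5a2 lies near Col3a1 on chromosome 1. Col5a1 rose less, from 5.73, 5.69 and 5.74 to 6.24, 6.21 and 6.35 (0.55 log2, SE 0.10, adjusted p = 0.00179). The third chain of the type, Col5a3, differed by 0.18 with overlapping groups (adjusted p = 0.320).

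The cartilage collagens Col2a1, Col11a1 and Col11a2 differed by 0.21, 0.13 and 0.07 (adjusted p = 0.323, 0.496 and 0.731), and Col24a1 by -0.003 (adjusted p = 0.991). The 95% confidence intervals of the 5 uncalled fibrillar genes ran from -0.28 to 0.52. Col27a1, a fibrillar collagen best known from cartilage, read 7.14, 6.93 and 6.96 in controls and 6.82, 6.55 and 6.67 in NICD1 kidneys. It was called lower only narrowly (-0.33 log2, SE 0.11, adjusted p = 0.0498), and it was called in 1 of the 6 fits that left out an array, the one without NICD1 replicate 1 (adjusted p between 0.0828 and 0.168 in the others).

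**Figure D2:**
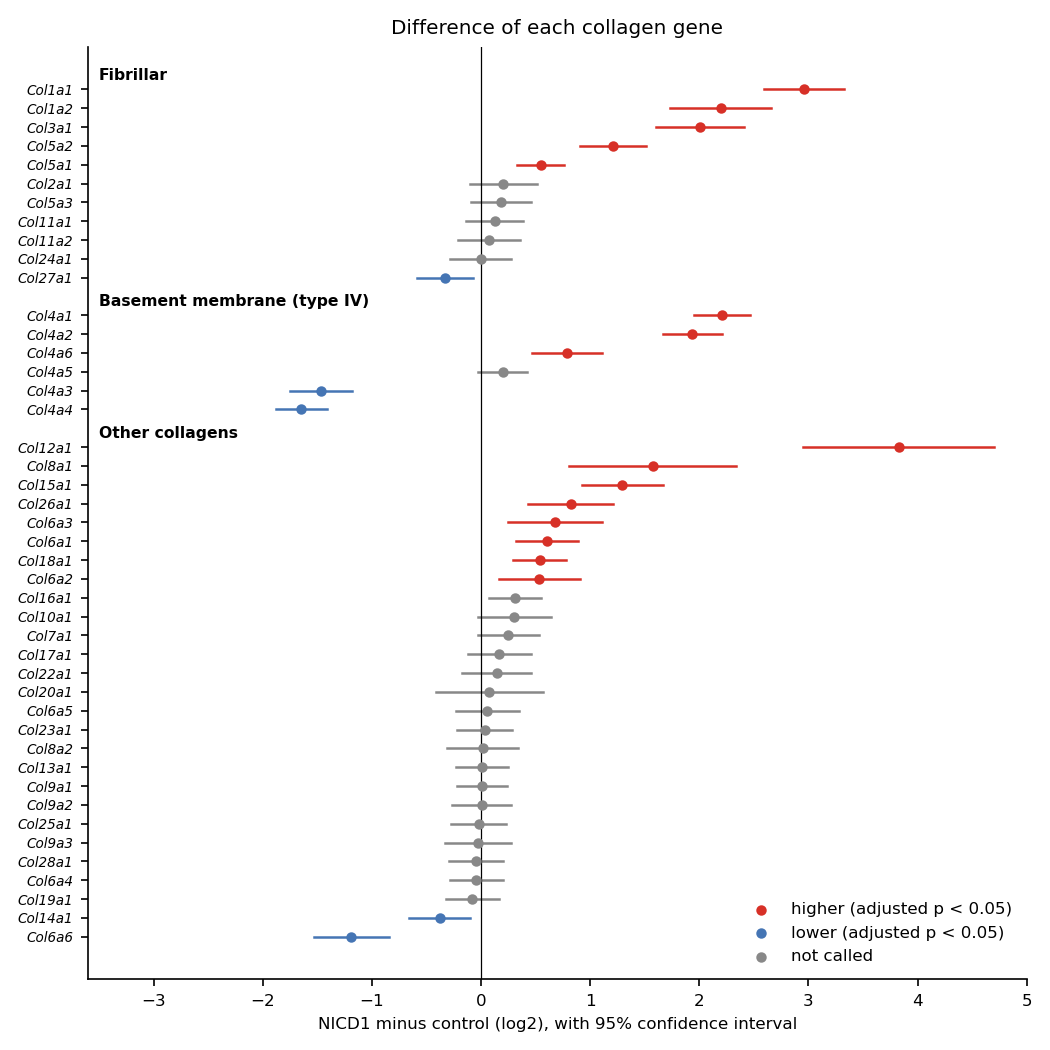
NICD1 minus control difference (x axis, log2) of each collagen gene with its 95% confidence interval from the limma fit, grouped by class. Red marks the 16 genes called higher, blue the 5 called lower and grey the 23 not called; the intervals of Col12a1 and Col8a1 are the widest among the called genes.

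Type IV collagen moved in both directions. The chains of the ubiquitous basement membrane network rose, and the chains Col4a3 and Col4a4 of the mature glomerular network fell. Col4a1 read 7.54, 7.33 and 7.26 in controls and 9.46, 9.62 and 9.67 in NICD1 kidneys, a 4.61-fold rise (2.21 log2, SE 0.11, adjusted p = 1.63e-06). Col4a2, its partner chain, read 7.62, 7.28 and 7.34 against 9.34, 9.47 and 9.25, a 3.83-fold rise (1.94 log2, SE 0.12, adjusted p = 4.15e-06). All NICD1 arrays lay above all controls for both chains. NICD1 replicate 3 was the highest of its group for Col4a1 and the lowest for Col4a2.

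Col4a3 read 7.53, 7.53 and 7.20 in controls and 5.81, 6.07 and 5.97 in NICD1 kidneys, a 2.77-fold fall (-1.47 log2, SE 0.13, adjusted p = 2.34e-05). Col4a4 read 8.16, 8.09 and 7.95 against 6.48, 6.34 and 6.44, a 3.13-fold fall (-1.64 log2, SE 0.10, adjusted p = 4.23e-06). No control array overlapped the NICD1 arrays in either gene. Col4a5, which completes the trimer with both, read 6.13, 6.17 and 6.25 against 6.45, 6.40 and 6.29. It differed by 0.20 (95% confidence interval -0.02 to 0.42, adjusted p = 0.172) and was not called, although its NICD1 arrays all lay above the controls. Col4a6 is a chain found with Col4a5 in basement membranes such as that of Bowman's capsule. It read 4.43, 4.13 and 4.42 against 5.35, 4.90 and 5.09, a rise of 0.79 (SE 0.14, adjusted p = 0.00204). Col4a6 was among the dimmest 40% of genes, and in the fit with a minimum change of 1.5-fold it was not called (adjusted p = 0.631). Over the 6 chains, 3 rose (50%), 2 fell and 1 was not called, and the median difference was 0.49. The shares over all genes were 17.8% higher and 14.9% lower.

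**Figure D3:**
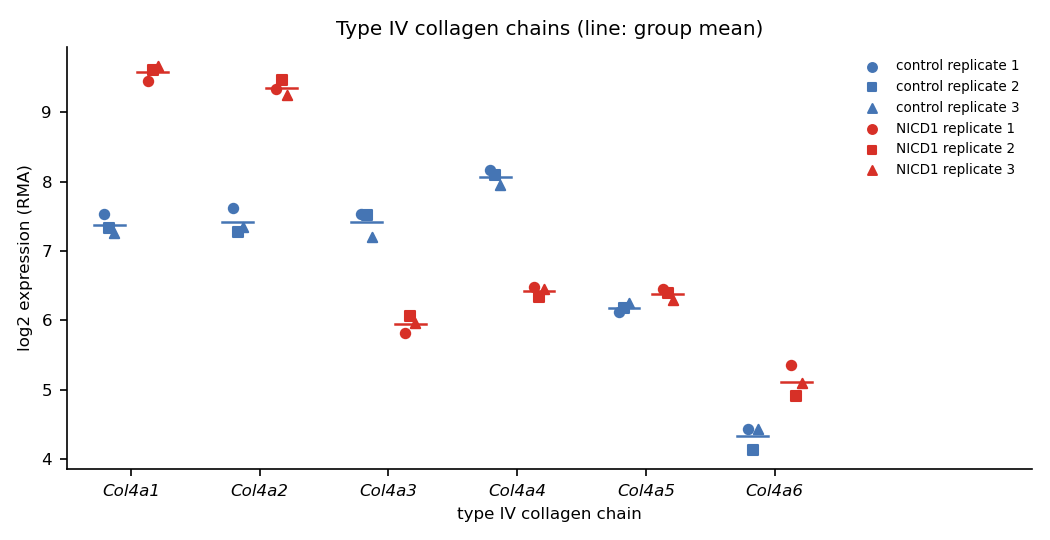
Log2 expression (y axis) of the 6 type IV collagen chains (x axis) in control (blue) and NICD1 (red) arrays, with a line at each group mean and the shape giving the replicate number. Col4a1 and Col4a2 are about 2 log2 units higher in NICD1 arrays, Col4a3 and Col4a4 are lower, and levels of different chains are not comparable because they come from different probes.

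RNA of whole tissue does not separate fewer cells of a type from less RNA per cell. Col4a3 and Col4a4 are made by podocytes and by some tubule cells. Of 6 measured podocyte markers 4 were lower and 1 (16.7%) was higher, with a median of -0.94. The shares over all genes were 14.9% lower and 17.8% higher. Podxl, a surface sialomucin of podocytes, went from 7.78 ± 0.09 to 6.04 ± 0.38, Cdkn1c from 6.46 ± 0.23 to 5.51 ± 0.14, while the podocyte transcription factor gene Wt1 read 5.50 ± 0.14 and 5.39 ± 0.03 (adjusted p = 0.499) and Synpo, which encodes an actin-binding protein, was the marker that rose (from 4.78 to 5.87). The mean level of these 6 markers was 5.84 to 6.02 in control arrays and 5.30 to 5.40 in NICD1 arrays. All 8 proximal tubule markers and 6 of 8 loop and distal tubule markers fell as well, with medians of -4.61 and -2.55 (Umod rose, by 0.32). The part of these shifts in the fall of the Col4a3 and Col4a4 signals was not tested.

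Whether chains of the same collagen type shifted by unequal amounts was examined in 9 pairs. The measure was the difference between the log2 values of the chains within each array. The chains of a pair were read by different probe sets, so unequal shifts in signal need not be unequal changes in RNA. An exact permutation test, two-sided, of 3 against 3 arrays cannot give less than p = 0.1, and after adjustment over the 9 pairs nothing could fall below 0.05. The shift of Col4a1 minus that of Col4a3 was 3.68 (SE 0.09) and that of Col4a4 minus Col4a5 was -1.84 (SE 0.12), each with all NICD1 arrays on one side of all controls (exact p = 0.1, adjusted p = 0.150). In the same way the difference was 0.77 for Col1a1 minus Col1a2 (SE 0.09), -0.66 for Col5a1 minus Col5a2 (SE 0.18), 0.27 for Col4a1 minus Col4a2 (SE 0.11) and 1.56 for Col8a1 minus Col8a2 (SE 0.60), with the same exact p and the same separation. For Col4a3 against Col4a4 the shifts differed by 0.18 (SE 0.13, exact p = 0.300), and for Col6a1 against Col6a2 and Col6a3 by 0.068 (SE 0.14, exact p = 0.900) and -0.071 (SE 0.19, exact p = 0.800), all with overlapping arrays.

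Of the 27 other collagens, 8 rose (29.6%), 2 fell and 17 were not called, with a median difference of 0.077. The shares over all genes were 17.8% higher and 14.9% lower. The FACIT collagens attach to the surface of fibrils, and of their 9 genes 1 rose (11.1%) and 1 fell, neither above those shares. Col12a1, which coats type I fibrils and is known from tendon and healing tissue, read 5.07, 4.88 and 4.49 in controls and 9.25, 9.10 and 7.56 in NICD1 kidneys. This was the largest rise of any collagen, at 3.83 (SE 0.39, adjusted p = 6.45e-05), and NICD1 replicate 3 stood well below the other two NICD1 arrays. Col14a1, another fibril-associated collagen, read 7.23, 7.02 and 6.97 against 6.90, 6.64 and 6.56 and was called lower narrowly (-0.38, SE 0.12, adjusted p = 0.0433). It too was called in 1 of the 6 fits that left out an array, the one without NICD1 replicate 1 (adjusted p between 0.0621 and 0.140 in the others). Col16a1 had no overlap between groups but was not called (0.31, adjusted p = 0.0517). It was called with array weights (adjusted p = 0.0352), with the dimmest 40% of genes left out (0.0366) and without control replicate 1 (0.0485). Col9a1, Col9a2, Col9a3, Col19a1, Col20a1 and Col22a1 had differences between -0.08 and 0.14 and overlapping groups.

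Type VI collagen forms beaded filaments around cells, mostly from the chains Col6a1, Col6a2 and Col6a3. These rose by 0.60, 0.54 and 0.67 (adjusted p = 0.00482, 0.0334 and 0.0226). Col6a1 read 6.04, 6.05 and 6.04 in controls and 6.88, 6.64 and 6.42 in NICD1 kidneys, Col6a2 5.94, 5.61 and 5.51 against 6.54, 6.14 and 5.99, and Col6a3 6.34, 6.10 and 5.72 against 7.08, 6.62 and 6.49. The groups did not overlap, but Col6a2 and Col6a3 were not called when arrays were centred on their medians (adjusted p = 0.0865 and 0.0517), nor Col6a2 after quantile normalization (adjusted p = 0.0635). Both also lost their call without control replicate 2 (adjusted p = 0.108 and 0.0563), control replicate 3 (0.124 and 0.0853) or NICD1 replicate 1 (0.0910 and 0.0616), and Col6a2 without NICD1 replicate 2 (0.0587). Col6a6, a chain that can take the place of Col6a3, moved the other way, reading 7.70, 7.26 and 7.59 in controls and 6.07, 6.40 and 6.52 in NICD1 kidneys (-1.19, SE 0.15, adjusted p = 2.87e-04). Its other probe set read 6.82, 6.09 and 6.80 against 4.82, 4.76 and 5.11 (-1.67, adjusted p = 2.74e-04 over 22961 annotated probe sets), also with no overlap. Col6a5, which lies near Col6a6 on chromosome 9, differed by 0.06 and Col6a4 by -0.04 (adjusted p = 0.802 and 0.826).

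Col8a1, a short-chain collagen of vessel walls and endothelial matrices, read 5.66, 5.56 and 6.10 in controls and 8.05, 7.52 and 6.48 in NICD1 kidneys. It rose 2.97-fold (1.57 log2, SE 0.34, adjusted p = 0.00565), with NICD1 replicate 3 only just above the highest control. Its partner Col8a2 differed by 0.01 (95% confidence interval -0.31 to 0.34), and Col10a1, known from growth plate cartilage, by 0.31 (adjusted p = 0.164; 0.0382 with array weights and 0.0254 without NICD1 replicate 1). The multiplexins Col15a1 and Col18a1 lie in the basement membrane zone, and the fragment endostatin is cut from Col18a1. Col15a1 read 6.05, 5.91 and 5.77 against 7.57, 7.13 and 6.92, a 2.45-fold rise (1.30 log2, SE 0.17, adjusted p = 2.72e-04). Col18a1 stood at 6.38 ± 0.11 in controls and 6.92 ± 0.11 in NICD1 kidneys with no overlap, a rise of 0.54 (SE 0.11, adjusted p = 0.00400). Counted with the type IV chains, they bring the basement membrane genes that rose from 3 to 5.

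Col26a1 read 6.01, 6.01 and 5.79 in controls and 7.04, 6.35 and 6.89 in NICD1 kidneys, a rise of 0.82 (SE 0.17, adjusted p = 0.00511). Col7a1, the anchoring fibril collagen of skin, differed by 0.25 (adjusted p = 0.169; without NICD1 replicate 1, 0.0332) and Col28a1 by -0.04 (adjusted p = 0.833). The 4 transmembrane collagens Col13a1, Col17a1, Col23a1 and Col25a1 differed by 0.01, 0.17, 0.03 and -0.02, and their groups overlapped. Over all 23 uncalled collagens the group means lay between 4.11 and 6.38, and the 95% confidence intervals reached from -0.41 to 0.64. No detection calls were used here, so whether the dimmest of them were transcribed at all is unknown.

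**Figure D4:**
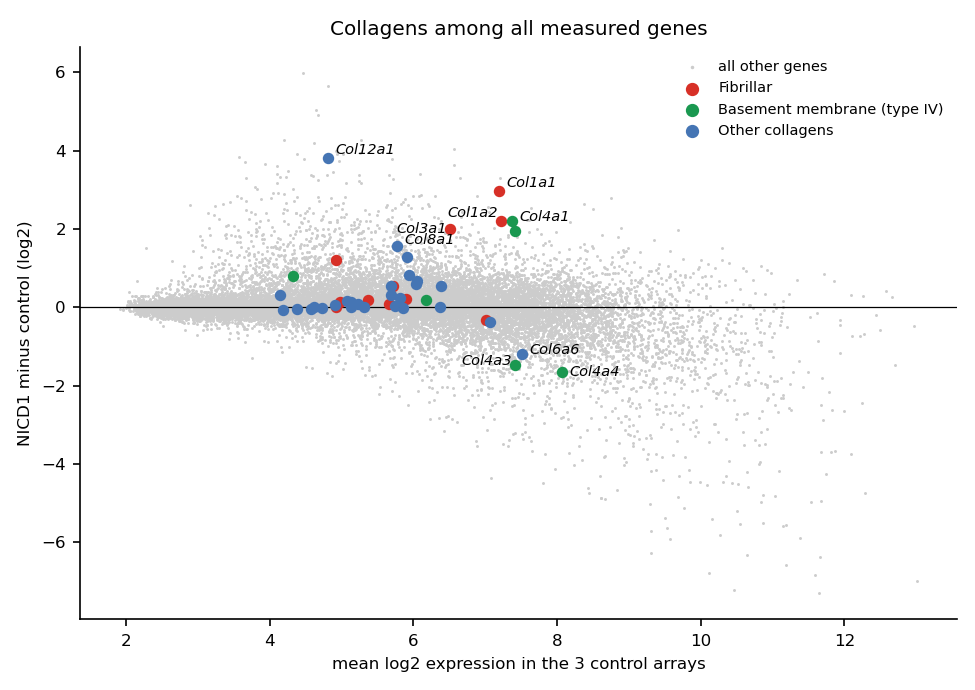
NICD1 minus control difference (y axis, log2) against the mean log2 expression in controls (x axis) for all genes (grey) and for fibrillar (red), type IV (green) and other (blue) collagens. Col12a1 and Col1a1 sit near the upper edge of the cloud and most of the uncalled collagens lie near 0.

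The risen collagens were not equally high in the 3 NICD1 arrays. Of the 16, 11 had their lowest NICD1 value in replicate 3 and 11 their highest in replicate 1. Over all 3551 genes called higher, 47.8% were lowest in replicate 3 and 56.7% highest in replicate 1. Without NICD1 replicate 3, 16 collagens were higher and 3 lower, and the difference of Col12a1 was 4.37. Markers of fibroblasts and myofibroblasts followed a similar order in part. Of 10, 5 rose (50%) and 1, Meox1, fell (by 0.51), with a median of 0.42. The shares over all genes were 17.8% higher and 14.9% lower. The intermediate filament gene Vim rose from 7.72 ± 0.06 to 9.72 ± 0.36, smooth muscle actin Acta2 from 7.85 ± 0.36 to 8.79 ± 0.51 and the PDGF receptor Pdgfrb from 6.78 ± 0.02 to 7.48 ± 0.38. The mean level of the 10 markers lay between 5.84 and 6.02 in control arrays and between 5.90 and 6.56 in NICD1 arrays, so the groups overlapped on this measure. The fibroblast genes Pdgfra and Dcn differed by -0.07 and -0.77 (adjusted p = 0.839 and 0.231). Lum, the dimmest of the 10, stood at 2.84 and 2.54 and was not called.

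Markers of other cell types that make or border on collagen were counted too, beside all-gene shares of 17.8% higher and 14.9% lower. Of 6 pericyte and smooth muscle markers, 1 rose (16.7%), close to the all-gene share, and 0 fell (median 0.14). Mcam was the one that rose, by 1.01, while Rgs5 differed by 0.31 (adjusted p = 0.483). Of 8 endothelial markers, 0 rose and 4 fell (median -0.78), with Emcn going from 7.95 ± 0.14 to 6.73 ± 0.61. Plvap and Flt1 differed by -0.60 and 0.24 and were not called (adjusted p = 0.0755 and 0.204). Of 8 macrophage markers, 6 rose and 0 fell (median 1.87), with Ctss going from 5.71 ± 0.36 to 9.50 ± 0.60. Csf1r, at 7.24 in controls, differed by -0.05 and was not called (adjusted p = 0.842). The mean level of the macrophage list was 4.65 to 4.80 in controls and 6.12 to 6.89 in NICD1 arrays, and that of the endothelial list 7.03 to 7.13 against 5.74 to 6.57. The part of any of these in the collagen differences was not tested.

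Genes that fold, process, bind and break down collagen moved in both directions. Of 48 measured, 15 rose (31.25%) and 9 fell, with a median difference of 0.17. Over all genes 17.8% were called higher and 14.9% lower, and among the collagens 36.4% were higher with a median of 0.18. Among 17 genes of folding and modification, 2 rose (11.8%) and 6 fell (median -0.14). P4ha2, a catalytic subunit of prolyl 4-hydroxylase, which stabilises the helix, rose by 1.15 (adjusted p = 0.00251), and the galactosyltransferase Colgalt1 by 0.57 (adjusted p = 0.00175). P4hb, the shared beta subunit of that hydroxylase, fell by 0.50 (adjusted p = 0.00560), and the prolyl 3-hydroxylase partner Crtap by 0.79 (adjusted p = 2.99e-04). The prolyl 3-hydroxylase P3h2 fell by 0.47, the lysyl hydroxylase Plod2 by 0.65, the export receptor Mia3 by 0.47 and Colgalt2 by 0.57. Serpinh1, the collagen chaperone HSP47, differed by 0.29 (adjusted p = 0.135).

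Of 12 processing and crosslinking genes, 3 rose (25%) and 2 fell (median 0.04), beside all-gene shares of 17.8% higher and 14.9% lower. Lox, the lysyl oxidase that crosslinks fibrils, rose from 3.45 ± 0.16 to 6.13 ± 0.96 (2.68 log2, adjusted p = 5.31e-04), with 6.41, 6.92 and 5.06 in the NICD1 arrays. Bmp1, which cuts off the C-propeptide, rose by 1.57 (adjusted p = 6.39e-06), and Pxdn, the peroxidase that crosslinks type IV collagen, by 0.64 (adjusted p = 0.00206). Pcolce, the enhancer of that propeptide cleavage, fell by 0.73 and the related protease Tll1 by 0.68.

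Of 9 collagen receptors, 5 rose (55.6%) and 0 fell (median 0.42), beside all-gene shares of 17.8% higher and 14.9% lower. Itga2, the integrin chain that binds fibrillar collagen, rose by 1.30, the receptor kinase Ddr1 by 0.77, the leukocyte receptor Lair1 by 0.71, the shared integrin chain Itgb1 by 0.67 and Itga1 by 0.42, while Ddr2 differed by -0.07 (adjusted p = 0.744). Of 10 genes of breakdown and its inhibitors, 5 rose (50%) and 1 fell (median 0.41), beside the same all-gene shares. The membrane collagenase Mmp14 rose from 5.64 ± 0.17 to 8.26 ± 0.29, and the protease inhibitor Timp1 from 3.80 ± 0.11 to 6.88 ± 0.62. Mmp2, Timp2 and Mmp9 rose by 0.75, 0.70 and 0.51. The inhibitor Timp3, which binds to the matrix, fell from 11.23 ± 0.09 to 8.66 ± 0.12 (-2.57 log2, adjusted p = 5.39e-07), the largest change of these 10 genes after Timp1 and Mmp14.

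**Figure D5:**
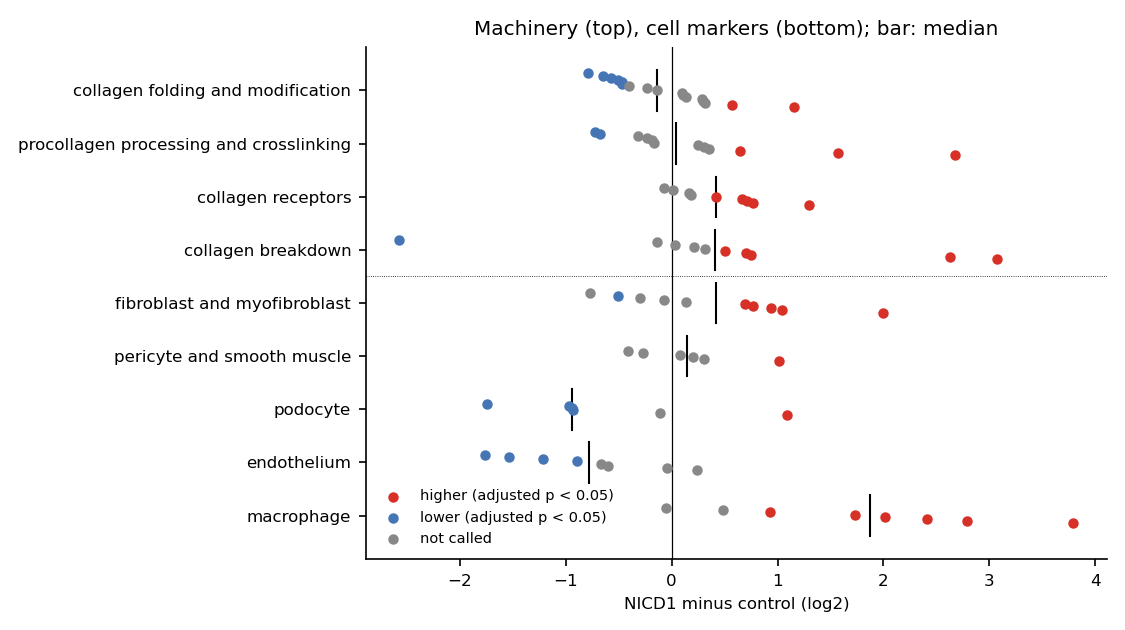
NICD1 minus control difference (x axis, log2) of each gene in 4 lists of collagen machinery (above the dotted line) and 5 lists of cell type markers (below), with a black bar at the list's median. Red points rose, blue points fell and grey points were not called; folding genes lean to the left and macrophage genes to the right.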

How the data were processed

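Per the labels' protocols, RNA was prepared with TRIzol, labelled with the Affymetrix one-cycle kit and normalized by the authors in GeneSpring with RMA16; the deposited values are log2 expression per probe set, with no software version given in those labels. No depth applies to arrays; their number, 3 per group, limits the precision. Gene symbols came from the platform annotation, which can be old: of 34760 probe sets, 21640 had 1 symbol, 1321 several and 11799 none. All 44 collagens matched a RefSeq gene table by Entrez identifier with 0 symbols changed. The table was fitted as a whole with limma 3.58.1 (R 4.3.3), two-sided, adjusted over 19937 genes. Alternatives were another normalization, filter, variance model, array weights, threshold, replicate block and leaving out each array. Of 108 machinery and marker genes listed, 102 were measured.

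The collagens, classes, lists and tests were chosen with earlier results of these data known. All collagens are named. Of the other lists, the called machinery genes and up to 3 markers of highest mean per type are named. Synpo, Umod, Meox1, Mcam, Pdgfra, Dcn, Lum, Ddr2 and Serpinh1 were named after their values were seen. Same-numbered samples did not deviate together (r between -0.070 and -0.012). On simulated arrays of 19937 genes, the fit of NICD1 against control called 37.3% of the 67 genes shifted 0.5 log2 units, 97% of the 67 shifted 1 unit and 100% of the 66 shifted 2 units. Of the genes called there, 5.45% had not been shifted. The simulation shifted 200 genes in all, while 6529 were called in the data, so these rates need not hold for the data.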

Additional observations from a re-analysis of the deposited data

How the results depend on the processing

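The counts of collagens called higher (16), fibrillar (5), type IV (3) and other collagens higher (8) and machinery genes higher (15) stayed within 1.5 times under quantile normalization, centring on medians, leaving out the dimmest 40%, other variance models, array weights, a threshold of 0.01, the replicate block and leaving out any array. Collagens called higher ranged from 14 to 17 when any array was left out. With the replicate number as a block, 16 collagens were higher and 4 lower, and no collagen call other than that of Col27a1 changed (adjusted p = 0.0592). With a minimum change of 1.5-fold, 8 collagens were higher, 3 lower, 2 other collagens higher, 5 machinery genes higher and 1838 genes called; at a threshold of 0.01, 3 collagens were lower. Collagens called lower ranged from 3 to 5 when any array was left out: 3 without control replicate 1, 2 or 3 or NICD1 replicate 2 or 3, where Col14a1 and Col27a1 were lost. With Col15a1 and Col18a1 counted in, 5 basement membrane collagens were higher. Centring moved the median of all genes from 0.015 to -0.108 and the calls from 3551 higher and 2978 lower to 2594 and 3990.

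Signs turned only in genes near 0 that were not called. Under quantile normalization Col11a2 was -0.026, Col6a5 -0.045, Col20a1 -0.024, Col9a1 -0.077, Col9a2 -0.041, Col8a2 -0.095, Col23a1 -0.066 and Col13a1 -0.11; under centring they were -0.049, -0.065, -0.046, -0.11, -0.12, -0.11, -0.089 and -0.11. With array weights Col6a5 was -0.033 and Col9a1 -0.017. Leaving out an array, Col11a2 ranged from -0.042 to 0.17, Col24a1 from -0.11 to 0.085, Col28a1 from -0.10 to 0.030, Col6a5 from -0.053 to 0.14, Col6a4 from -0.096 to 0.021, Col22a1 from -0.0051 to 0.22, Col20a1 from -0.17 to 0.24, Col9a1 from -0.058 to 0.057, Col9a2 from -0.076 to 0.082, Col9a3 from -0.13 to 0.12, Col8a2 from -0.064 to 0.16, Col23a1 from -0.023 to 0.12, Col13a1 from -0.058 to 0.069 and Col25a1 from -0.11 to 0.031. The chain differences of Col6a1 with Col6a2 and Col6a3 turned too when an array was left out, ranging from -0.060 to 0.15 and from -0.22 to 0.091. The cause was not tested.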

Other observations

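The other probe set of Col6a5 read 3.43, 3.36 and 3.31 in control and 3.23, 3.44 and 3.37 in NICD1 arrays, a difference of -0.021, so neither probe set of that gene was called.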
